A study of Mus musculus with 6 samples.

Results

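The hepatic genes of iron and heme handling were examined in mice given trichloroethylene (TCE), a chlorinated solvent. The group consisted of 10 genes chosen by name: Hamp, Hamp2, Tfrc, Tfr2, Trf, Fth1, Slc40a1, Slc11a2, Alas1 and Alas2. On the array these symbols were carried by 15 of the 55681 probes that are not controls, and 14 of the 15 were detected and tested among 22731 probes in all. Whole liver was taken from male B6C3F1 mice aged 7 weeks, a hybrid strain, after 5 days of dosing by mouth. The 3 controls were given corn oil, the vehicle, and the other 3 mice a daily TCE dose of 1000 mg/kg b.w. Each mouse had an array of its own with a single dye, so that n = 3 mice in each group, and all cell types of the liver were measured together. Values are quantile-normalized log2 signals, on which a difference of 1 is a 2-fold change. A log2 signal compares mice at the same probe and does not rank one probe against another.

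Hepatocytes take up iron bound to transferrin through transferrin receptors, store it in ferritin, and release it through ferroportin, the only known exporter of iron from mammalian cells. Hepcidin, a peptide hormone secreted by hepatocytes, makes ferroportin degrade, and its gene is driven by BMP and SMAD signals when iron is plentiful and by IL-6 and STAT3 in inflammation. Heme synthesis begins with 5-aminolevulinate synthase, of which Alas1 encodes the form of the liver and most other tissues and Alas2 the form of developing red cells. Inside cells, iron regulatory proteins bind mRNAs when iron is scarce, which protects Tfrc mRNA and blocks the translation of ferritin and Alas2.

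The probes of the 2 hepcidin genes and of Alas2 lay across the end of the coding sequence, and their coding stretches, as the array files give them, are shown because the hepcidin genes are paralogs whose signals could mix, and because Alas2 was the member with the clearest difference. Each is read on the strand of the mRNA, 5′ to 3′, up to the stop codon. Capitals mark the bases at which the hepcidin stretches differ and, for Alas2, the stop codon.
Hamp probe: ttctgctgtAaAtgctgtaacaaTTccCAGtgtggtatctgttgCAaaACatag
Hamp2 probe: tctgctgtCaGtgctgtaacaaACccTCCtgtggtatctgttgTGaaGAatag
Alas2 probe: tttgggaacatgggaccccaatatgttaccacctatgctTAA

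The Hamp probe lay at chr7:31727490-31727549 and the Hamp2 probe at chr7:31707520-31707579, both on the minus strand of mm9, and the Alas2 probe at chrX:147004993-147005052 on the plus strand. Of 53 coding bases that could be compared between the hepcidin probes, 42 matched (79.2%) and 11 differed, so that some cross-hybridization between the 2 genes cannot be told apart from their own signal. The 2 signals went different ways in TCE mice 2 and 3, as described with the genes.

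By the threshold of a limma adjusted p of 0.05 or less together with a 2-fold change, 0 of the 10 genes changed, where 321 of all tested probes did (1.41%). The methods' t-test, a plain test of each probe alone, also put 0 of them past both limits, with and without adjustment. With the fold left out, 1 gene, Alas2, was lower in TCE mice, where 456 of all tested probes passed (2.01%). At an unadjusted limma p under 0.05, 5 of the 14 member probes passed, against 17.9% of all tested probes. The 3 control and 3 TCE mice did not overlap at 5 member probes of 4 genes, 3 of them higher in TCE mice (both detected Tfrc probes and Fth1) and 2 lower (Alas2 and 1 Trf probe), where 25.7% of all tested probes showed no overlap. The median fitted log2 change over the 10 genes was -0.0029, with 5 genes above and 5 below 0, beside a median of 0.02 over all 13284 detected genes.

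**Figure D1:**
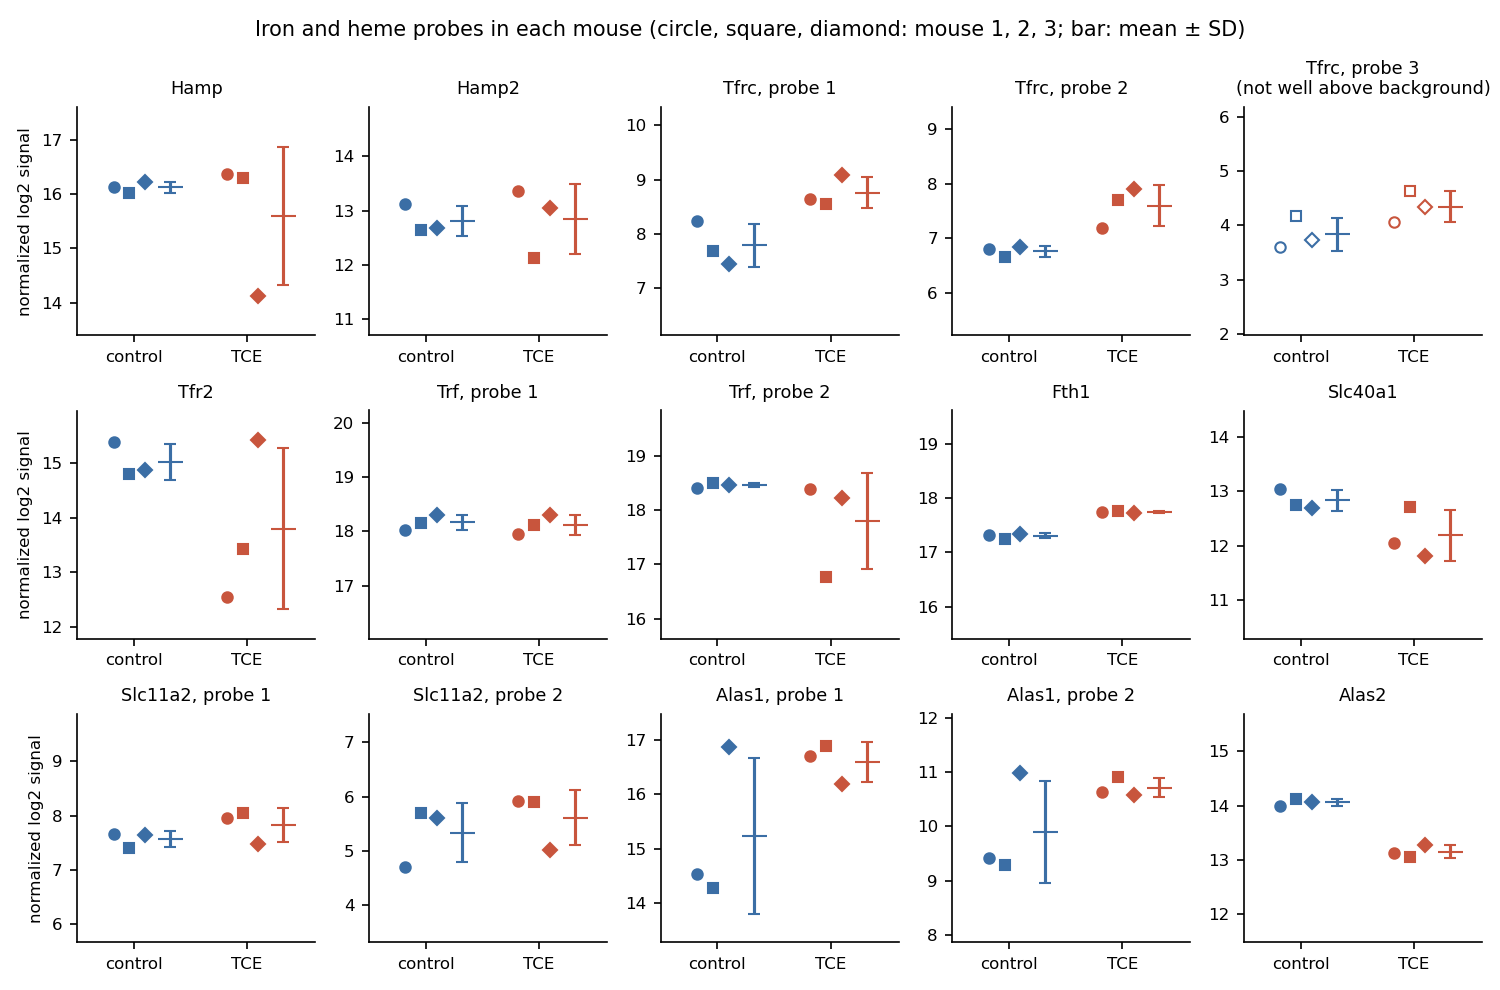
Normalized log2 signal (vertical axis) of the 15 iron and heme probes in each of the 3 control and 3 TCE mice, with the group mean ± SD beside the points; every panel spans the same number of log2 units. The Alas2 points of the TCE mice all lie below those of the controls, Fth1 and the first 2 Tfrc panels lie above, and Hamp, Tfr2 and the second Trf panel each have TCE mice far from the rest.

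Alas2, the red cell form of the rate-limiting enzyme of heme synthesis, was the single member past the adjusted p. Its log2 signal was 14.00, 14.13 and 14.07 in control mice 1, 2 and 3 and 13.13, 13.06 and 13.28 in TCE mice 1, 2 and 3. All TCE mice lay well below all controls, and both groups were tight. The mean fell from 14.07 ± 0.06 to 13.16 ± 0.12 (SD, n = 3 mice each), a fitted log2 change of -0.91 ± 0.12 (SE; 95% interval -1.19 to -0.63), or 1.88-fold lower, with a limma adjusted p of 0.0215. The exact permutation test (two-sided) gave 0.1, the smallest p that 3 against 3 mice allow. Control mouse 1 had a slide to itself and the other 5 mice shared a second slide, on which the change was -0.94 with a limma adjusted p of 0.0742. The call was lost in 5 of the 6 fits that left out a mouse and kept without TCE mouse 3. Over all 6 of these fits the log2 changes ran from -0.97 to -0.86. The adjusted p ran from 0.00656 to 0.12 over all alternatives with an adjustment.

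Alas2 is known from red cell precursors, and whole liver holds blood, so the levels of red cell genes are given beside it. Fewer such cells and less Alas2 RNA per cell cannot be told apart in whole liver. Of 22 erythroid markers on the array, 11 were detected, 0 passed the adjusted p, 9 were lower and 2 higher, and their median log2 change was -0.53, or -0.19 without TCE mouse 2. The defining markers Gata1, Epb4.2 and Ahsp were not detected, while Slc4a1 and Klf1 were. Slc4a1 had a log2 change of 0.10 (limma adjusted p = 0.936) and Klf1 one of -0.37 (limma adjusted p = 0.2985). In TCE mouse 3 Slc4a1 read 7.07, above the 6.03, 5.63 and 6.07 of control mice 1, 2 and 3. The log2 of the summed signal of the detected markers lay between 18.08 and 18.46 in the controls, and the sums of TCE mice 1, 2 and 3 were 17.78, 16.85 and 18.28. The sum of TCE mouse 3 lay among those of the controls, and the sums of the other 2 TCE mice lay below them. Here and for the other marker lists the sums add unlogged signals, so the brightest probes weigh most, here mainly the globins. The median difference from the control mean, which weighs each marker alike, was -0.38, -0.61 and 0.05 in TCE mice 1, 2 and 3. At 4 of the 11 markers (36.4%) the groups did not overlap, all 4 lower in TCE mice. Of all 13284 detected genes, 1437 were lower without overlap, and 27.9% showed no overlap in either direction.

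Hba-a1, which encodes alpha globin, read 15.84, 15.18 and 15.08 in control mice and 14.76, 13.71 and 15.50 in TCE mice. Hbb-b1, which encodes beta globin, read 15.13, 14.52 and 14.62 in control mice and 14.37, 12.96 and 15.11 in TCE mice. Both globins were lowest in TCE mouse 2 and overlapped between the groups, with limma adjusted p values of 0.478 and 0.595. The markers with the smallest adjusted p were Epb4.9, which encodes dematin, a protein of the red cell skeleton, at a log2 change of -0.73 (limma adjusted p = 0.114) and Car1, the red cell carbonic anhydrase, at -0.53 (limma adjusted p = 0.185). Their mice did not overlap between the groups. The part of red cell content in the Alas2 difference was not tested.

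**Figure D2:**
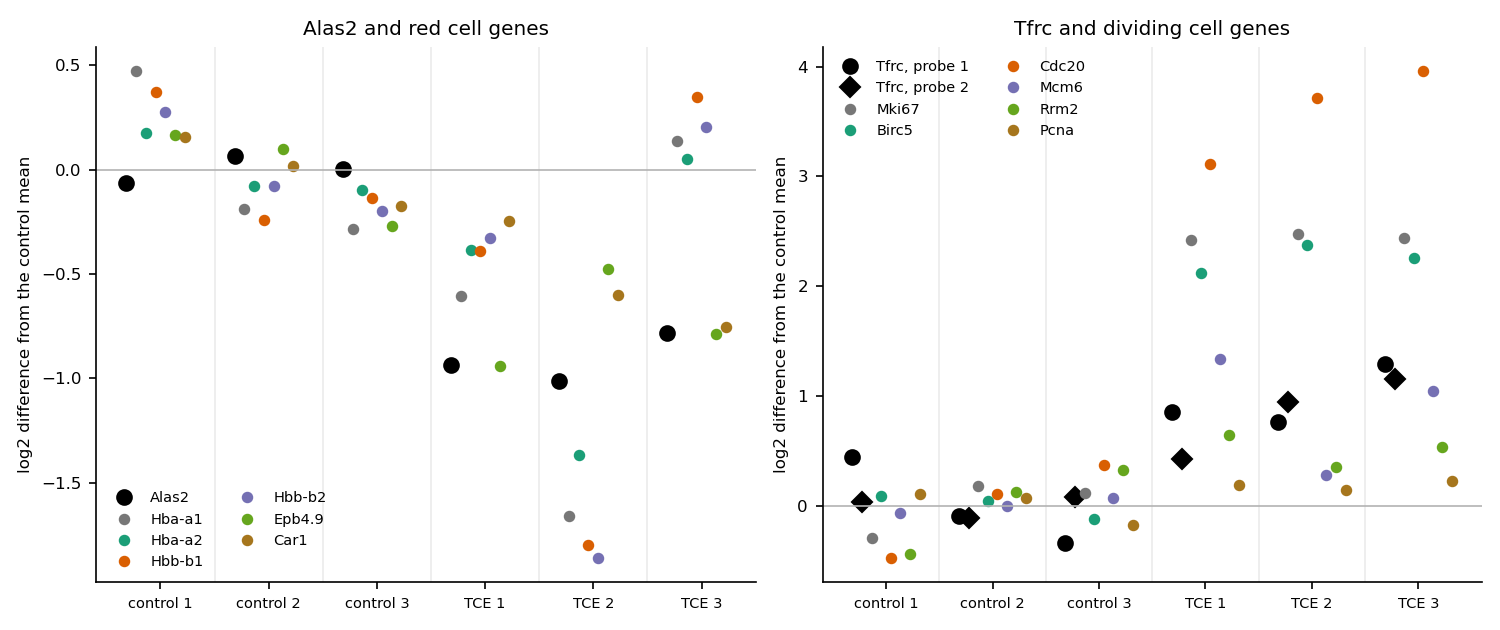
Difference of each mouse from the control mean on the log2 scale (vertical axis) for Alas2 beside red cell genes (left) and for both detected Tfrc probes beside dividing cell genes (right), with the 6 mice along the horizontal axis. In TCE mouse 3 the globins stood near or above the control mean, and the difference of Alas2 was -0.78. Epb4.9 and Car1 lay below all controls in that mouse, at log2 signals of 13.32 and 8.45. In all TCE mice Mki67 and Birc5 stood more than 2 above the control mean, and the Tfrc probes 0.42 to 1.29 above. Cdc20, Mcm6, Rrm2 and Pcna had fitted changes of 3.59, 0.89, 0.51 and 0.18.

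A stretch upstream of Alas2 is shown because GATA factors are known to drive this gene in red cells. It covers chrX:150547297-150547396 on the plus strand of GRCm38.p6 in the RefSeq promoter table, at positions -120 to -21 from the start of the gene, and capitals mark a match to AGATAA, the long GATA letters, on the opposite strand.
Alas2 promoter: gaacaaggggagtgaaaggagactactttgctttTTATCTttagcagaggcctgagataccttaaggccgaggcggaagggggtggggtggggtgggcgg

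The match began at position -86. Among all 32851 mouse promoters of 300 bases in the table, 11.2% held these letters on either strand, so a match is a description of the window only.

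Alas1, the first enzyme of heme synthesis in hepatocytes and a gene induced together with cytochromes P450, had 2 detected probes, at chr9:106136284-106136343 and chr9:106135796-106135855 of mm9. The first probe read 14.53, 14.28 and 16.87 in control mice and 16.70, 16.90 and 16.19 in TCE mice. The second read 9.42, 9.30 and 10.97 in control mice and 10.63, 10.91 and 10.58 in TCE mice. At both probes control mouse 3 stood with the TCE mice, and the other 2 controls lay below all 3 TCE mice.

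The fitted log2 changes of Alas1 were 1.37 ± 0.68 (SE) at the first probe (limma adjusted p = 0.356) and 0.81 ± 0.45 at the second (limma adjusted p = 0.399), so Alas1 did not pass the test. The spread lay in the controls, with an SD of 1.43 at the first probe, higher than the control SD of 99.6% of tested probes, against 0.37 in TCE mice. Without control mouse 3 the changes became 2.19 and 1.35, with limma adjusted p values of 0.0431 and 0.0449, and Alas1 was then the single member past the adjusted p and the 2-fold limit. Over all alternatives the log2 change of the first probe ran from 0.89 to 2.19.

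Among 13270 detected genes outside the group, the profiles over the 6 mice that lay nearest to the first Alas1 probe were those of Chac1, Hspb1 and Cebpd, at root mean square differences of 0.405, 0.499 and 0.513 on the log2 scale, where the median gene differed by 1.30. Chac1, a glutathione-degrading enzyme of the stress response, stood 1.23 above the control mean in control mouse 3 and 1.42 to 1.90 above it in TCE mice. Hspb1, a small heat shock protein, stood 0.78 above it in control mouse 3. Cebpd, a transcription factor of the acute phase, stood 0.75 above it. These genes were chosen for their likeness to Alas1, so a high signal in control mouse 3 follows from the choice.

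Of 10 listed regulators of Alas1 transcription, all were detected, 8 had fitted changes above 0 and 0 passed the adjusted p, with a median log2 change of 0.16. The smallest adjusted p values were those of Foxo1, a factor of the fasting state, at 0.45 (limma adjusted p = 0.139), and Nr1i2, the pregnane X receptor that responds to drugs, at 0.42 (limma adjusted p = 0.151). For both genes every TCE mouse lay above every control. That held at 3 of the 10 regulators (30%), where 17.1% of all detected genes were higher without overlap. The letters AGGTCA, to which many nuclear receptors bind as a half-site, had no match in the 2 Alas1 promoters of the table, and 16.3% of all promoters held them.

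Of 14 listed genes of heme synthesis other than the members, all 14 were detected, 7 had fitted changes above and 7 below 0, and 0 passed, with a median log2 change of 0.01. The groups did not overlap at 3 of them (21.4%), all higher in TCE mice. Of all detected genes, 17.1% were higher without overlap and 27.9% showed no overlap in either direction. Cpox, coproporphyrinogen oxidase, read 12.56, 12.65 and 12.76 in control mice and 13.09, 13.21 and 13.18 in TCE mice, at a log2 change of 0.50 ± 0.11 (SE, limma adjusted p = 0.0963). Clpx, part of a mitochondrial protease known to act on the synthase, had a change of 0.71 (limma adjusted p = 0.261). Cpox and Clpx were among the 3 genes without overlap.

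Hamp, which encodes hepcidin, read 16.13, 16.02 and 16.22 in control mice and 16.37, 16.29 and 14.13 in TCE mice. TCE mice 1 and 2 lay slightly above all controls, and TCE mouse 3 lay far below every other mouse. The fitted log2 change of -0.53 ± 0.59 (SE, limma adjusted p = 0.685) rested on that mouse, and without it the change was 0.21 (limma adjusted p = 0.454). The controls had an SD of 0.10 and the TCE mice one of 1.27, which was above the TCE SD of 98.5% of tested probes. A single spot on each array measured Hamp, and none of the 6 spots was marked as an outlier or saturated.

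Hamp2, the second hepcidin gene of the mouse, read 13.12, 12.64 and 12.67 in control mice and 13.36, 12.12 and 13.06 in TCE mice. Its groups overlapped, and its fitted log2 change was 0.04 (95% interval -0.77 to 0.84, limma adjusted p = 0.969). Relative to the control means, TCE mouse 3 was at -1.99 for Hamp and 0.25 for Hamp2, and TCE mouse 2 was at 0.16 for Hamp and -0.69 for Hamp2. TCE mouse 1 was the highest of the 6 mice at both genes, at 0.25 for Hamp and 0.55 for Hamp2. The genes nearest to the Hamp profile were Med16, Col7a1 and Depdc7, at root mean square differences of 0.18, 0.192 and 0.254 where the median gene differed by 0.859. They stood at -2.05, -2.17 and -1.98 from the control mean in TCE mouse 3, a dip that follows from choosing them by the Hamp profile.

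The hepcidin promoters are shown because the letters known from the control of this gene lie in them. Both come from the RefSeq table on GRCm38.p6, minus strand, the Hamp stretch from chr7:30944060-30944179 (positions -150 to -31) and the Hamp2 stretch from chr7:30924209-30924328 (positions -147 to -28). Capitals mark GGCGCC, known as a BMP response element, and TTCNNNGAA, the letters of a STAT site.
Hamp promoter: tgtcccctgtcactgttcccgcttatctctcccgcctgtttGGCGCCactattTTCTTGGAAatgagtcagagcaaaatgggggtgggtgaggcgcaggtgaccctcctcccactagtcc
Hamp2 promoter: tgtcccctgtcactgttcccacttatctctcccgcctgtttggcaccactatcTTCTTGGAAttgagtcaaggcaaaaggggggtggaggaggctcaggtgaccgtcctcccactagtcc

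Of 247 bases upstream that could be compared, 227 matched between the 2 genes (91.9%). The STAT letters were present in both, at positions -97 and -94, while GGCGCC had a match in Hamp, at position -109, and none in Hamp2. On either strand, 8.3% of all promoters held the STAT letters and 11.9% held GGCGCC. Among the other members, a Tfrc promoter held GGCGCC at position -89 and an Alas1 promoter held the STAT letters at position -171. Both hepcidin stretches also held the long GATA letters, unmarked, on the opposite strand, at positions -128 and -125.

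The genes that signal to hepcidin showed no called change. Of 21 detected genes of the BMP and iron-sensing arm, 7 were above and 14 below 0, and 0 passed, with a median log2 change of -0.05. At 4 of them (19%) the groups did not overlap, where 27.9% of all detected genes showed no overlap. Acvr1, a BMP type I receptor, read 11.49, 11.54 and 11.73 in control mice and 11.08, 11.10 and 11.06 in TCE mice, at a change of -0.51 ± 0.11 (SE, limma adjusted p = 0.0959). Smad6, an inhibitor of SMAD signaling and itself a BMP target, had a change of -0.76 (limma adjusted p = 0.173), and at both genes the groups did not overlap. Fam132b, which encodes erythroferrone, the red cell hormone that lowers hepcidin, was not detected. TCE mouse 3, the mouse with the low Hamp signal, had the lowest Smad6 signal, 6.58, and an Acvr1 signal near those of the other TCE mice. Smad7 and Id3 of this list were also lowest in that mouse, at 6.96 and 10.41. Id1 and Atoh8 were lowest in control mouse 3, at 8.49 and 7.16, and Id2 in TCE mouse 2, at 12.53. A link of these signals to Hamp was not tested.

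Of 9 detected genes of the IL-6 and STAT3 arm, 2 were above and 7 below 0, and 0 passed, with a median of -0.10. At 4 of them (44.4%) the groups did not overlap, where 27.9% of all detected genes showed no overlap. Il6 itself was not detected. Cebpa, a liver transcription factor needed for Hamp expression, was at -0.42 (limma adjusted p = 0.215) and Stat3 at 0.40 (limma adjusted p = 0.228), and neither overlapped between the groups. All 17 acute phase genes were detected, 16 above 0 and 1 below, with a median of 0.20, and 0 passed. Of all 13284 detected genes, 7058 were above 0. At 5 of the 17 acute phase genes (29.4%) all TCE mice lay above all controls, where 17.1% of all detected genes were higher without overlap. The median of the acute phase list was 0.14 without TCE mouse 1 and 0.35 without TCE mouse 2. Lcn2, the siderophore-binding protein lipocalin 2, read 8.55, 8.88 and 8.30 in control mice and 13.42, 10.40 and 12.40 in TCE mice. Every TCE mouse was above every control, but the TCE mice differed so much that a log2 change of 3.50 ± 0.72 (SE) had a limma adjusted p of 0.0752. Hp, haptoglobin, which binds free hemoglobin, was at 0.42 (limma adjusted p = 0.147).

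**Figure D3:**
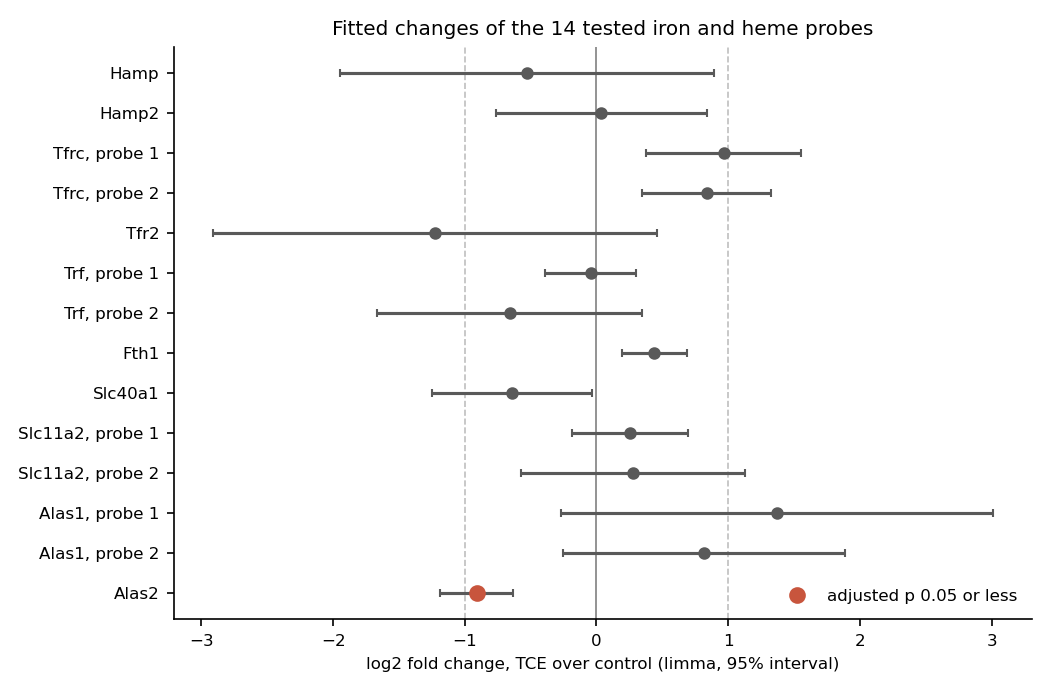
Fitted log2 change of TCE over control mice (horizontal axis) at the 14 tested iron and heme probes, with 95% intervals from limma; dashed lines mark a 2-fold change and the red point an adjusted p of 0.05 or less. The red point is Alas2 at -0.91, the intervals of Tfrc and Fth1 lie above 0, that of Slc40a1 ends just below 0, and those of Hamp, Tfr2 and Alas1 are the widest.

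Tfrc, transferrin receptor 1, the receptor through which most cells take up iron, had 3 probes. The first, at chr16:32632255-32632314 of mm9 and averaged over 10 spots on each array, read 8.23, 7.69 and 7.45 in control mice and 8.65, 8.55 and 9.08 in TCE mice. The second, at chr16:32620470-32620529, read 6.79, 6.65 and 6.84 in control mice and 7.18, 7.70 and 7.91 in TCE mice. At both probes all TCE mice lay above all controls, and TCE mouse 3 was the highest. The third probe did not stand well above background in any of the mice and was not tested.

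The fitted log2 changes of Tfrc were 0.97 ± 0.24 (SE; 95% interval 0.38 to 1.56) and 0.84 ± 0.20 (95% interval 0.35 to 1.33), or 1.96-fold and 1.79-fold higher. The limma adjusted p values were 0.118 and 0.109, so Tfrc did not pass the threshold. The exact permutation p was 0.1 for each. Over all alternatives the changes stayed above 0, from 0.77 to 1.19 and from 0.54 to 1.05, and the methods' t-test without adjustment gave 0.0267 and 0.0203. The nearest profiles to the first probe were those of Serpinb1a, Nt5e and Cables1, at root mean square differences of 0.104, 0.112 and 0.116 where the median gene differed by 0.762.

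Tfrc is also known for high levels in dividing cells, and genes of cell division were higher in these TCE mice. Of 17 dividing cell markers on the array, 8 stood well above background in all controls, and 4 of these passed the adjusted p and the 2-fold limit, where 1.73% of all detected genes did, with a median log2 change of 1.96 over the 8. Another 4, Plk1, Ccnb1, Cdk1 and Ccna2, were tested only because their signal was well above background in all TCE mice, so that their higher signal there is in part given by the filter, and all 4 passed. The median over the 12 tested markers, 2.22, became 1.13 with normexp background correction. Mki67, a marker of cycling cells, read 5.89, 6.37 and 6.30 in control mice and 8.61, 8.66 and 8.63 in TCE mice, and rose by 2.44 (limma adjusted p = 0.00176). Birc5, survivin, rose by 2.25 (limma adjusted p = 0.0011). Of the 8 measured in all controls, Cdc20 and Aurka also passed both limits. Mcm5, Mcm6, Rrm2 and Pcna did not, at changes of 1.73, 0.89, 0.51 and 0.18. Plk1 and Ccnb1 did not stand well above background in any control, and Cdk1 and Ccna2 did in 2 of 3. Top2a stood well above background in 1 TCE mouse and was not tested. The log2 of the summed marker signal lay between 12.35 and 12.44 in the controls and between 13.15 and 13.38 in TCE mice. The part of dividing cells in the Tfrc difference was not tested.

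Tfr2, transferrin receptor 2, an iron sensor of hepatocytes upstream of hepcidin, was measured by 1 probe at chr5:138028646-138028705 of mm9. It read 15.40, 14.80 and 14.87 in control mice and 12.54, 13.43 and 15.43 in TCE mice. TCE mice 1 and 2 lay far below all controls, while TCE mouse 3 was the highest of the 6. The fitted log2 change was -1.23 ± 0.70 (SE; 95% interval -2.91 to 0.46, limma adjusted p = 0.419), with SDs of 0.33 in the controls and 1.48 in the TCE mice. Without TCE mouse 1 the change was -0.60 and without TCE mouse 3 it was -2.05. The TCE mouse with the highest Tfr2 signal was the one with the low Hamp signal.

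Trf, transferrin, the iron carrier of plasma that hepatocytes secrete, had 2 probes on chromosome 9 of mm9, at chr9:103111207-103111266 and chr9:103112826-103112885, and they disagreed. The first read 18.03, 18.16 and 18.30 in control mice and 17.94, 18.11 and 18.30 in TCE mice, with a fitted log2 change of -0.04 (95% interval -0.39 to 0.30, limma adjusted p = 0.906). The second read 18.41, 18.50 and 18.46 in control mice and 18.39, 16.77 and 18.23 in TCE mice, with a change of -0.66 (limma adjusted p = 0.464). At the second probe all TCE mice lay below all controls, but TCE mice 1 and 3 were only at -0.07 and -0.23 from the control mean, and without TCE mouse 2 the change was -0.15. TCE mouse 2 also had the most tested probes at which it alone lay at least 1 log2 unit below the other 5 mice, 503 of 22724 (2.21%) against 41 to 143 in the others.

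Slc40a1, ferroportin, measured at chr1:45965255-45965314 of mm9, read 13.05, 12.74 and 12.70 in control mice and 12.05, 12.71 and 11.81 in TCE mice. TCE mice 1 and 3 lay below all controls and TCE mouse 2 among them. The fitted log2 change was -0.64 ± 0.25 (SE; 95% interval -1.25 to -0.04), or 1.56-fold lower, with a limma adjusted p of 0.255, so the gene did not pass. Slc40a1 is also strong in Kupffer cells, the macrophages of the liver. Of 15 detected Kupffer cell and macrophage markers, 4 were above and 11 below 0 and 0 passed, with a median of -0.08, and the log2 of their summed signal lay between 14.89 and 15.04 in the controls, with sums of 14.80, 14.84 and 15.12 for TCE mice 1, 2 and 3. The defining marker Clec4f differed by -0.12 (limma adjusted p = 0.649). The smallest adjusted p was that of Itgam, an integrin of myeloid cells, at 0.48 (limma adjusted p = 0.345). Next came Ptprc, the pan-leukocyte marker CD45, at 0.65 (limma adjusted p = 0.381). Ptprc stood well above background in 2 of 3 controls and was tested only because it did so in all TCE mice. It did not overlap between the groups, which is in part given by the filter. The median of the list became 0.02 without TCE mouse 1, -0.15 without control mouse 3 and -0.16 without TCE mouse 3. The part of macrophage content in the Slc40a1 difference was not tested.

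Slc11a2, DMT1, which carries iron out of endosomes, had 2 probes, at chr15:100218333-100218392 and chr15:100240516-100240575 of mm9. The first read 7.66, 7.40 and 7.65 in control mice and 7.95, 8.05 and 7.48 in TCE mice, with a fitted log2 change of 0.25 (95% interval -0.19 to 0.69, limma adjusted p = 0.522). The second read 4.71, 5.69 and 5.61 in control mice and 5.93, 5.89 and 5.02 in TCE mice, with a change of 0.28 (limma adjusted p = 0.725). At both probes the groups overlapped, with TCE mouse 3 below the other TCE mice. The second probe fell short of the background limit in control mouse 1, and without that mouse its change was -0.04.

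Fth1, the heavy chain of ferritin, which oxidizes and stores iron, read 17.33, 17.25 and 17.34 in control mice and 17.75, 17.77 and 17.72 in TCE mice at chr19:10059485-10059544 of mm9. All TCE mice lay above all controls, and the TCE mice were close to each other, since 1.17% of tested probes had a lower TCE SD than 0.02. The fitted log2 change was 0.44 ± 0.10 (SE; 95% interval 0.19 to 0.68), or 1.36-fold higher, with a limma adjusted p of 0.102. Limma draws the spread of each probe toward that of all probes, and with a variance trend on signal the adjusted p was 0.0474. The methods' t-test, which uses the spread of the probe alone, gave 0.000151 without adjustment and 0.0503 after Benjamini-Hochberg adjustment. With 75th percentile scaling in place of quantile normalization the change was 0.28, the lowest of the alternatives, with a limma adjusted p of 0.308. Over all alternatives the adjusted p ran from 0.0474 to 0.318 and the change from 0.28 to 0.46.

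**Figure D4:**
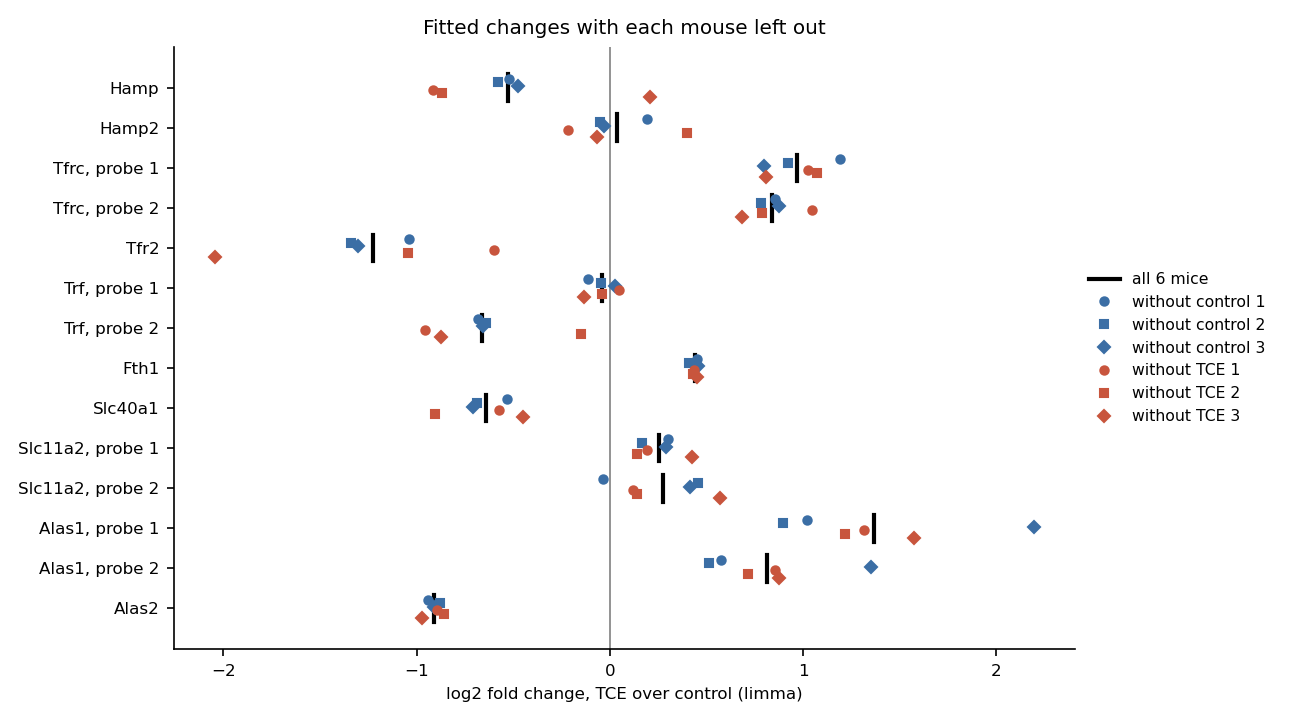
Fitted log2 change of TCE over control mice (horizontal axis) at the 14 tested probes with all 6 mice (black bar) and with each mouse left out (blue, a control mouse; red, a TCE mouse). The points of Alas2 and Fth1 lie close to the bar, Hamp crosses 0 without TCE mouse 3, and Alas1 moves to 2.19 and 1.35 without control mouse 3.

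The other genes of iron handling were described by lists chosen for the pathway, each gene by its brightest detected probe, and 0 genes of these lists passed the adjusted p, where 239 of 13284 detected genes passed above and 78 below 0 (2.39% in all). At an unadjusted p under 0.05, 18 of the 126 distinct detected genes of the 9 iron and heme lists passed by limma (14.3%), where 19.1% of all detected genes did. By the methods' t-test 21 passed, where 19% of all detected genes did, and 0 passed after Benjamini-Hochberg adjustment. Of 7 detected genes of iron storage and iron sensing, 3 were above and 4 below 0, with a median log2 change of -0.08. Ireb2, iron regulatory protein 2, read 6.45, 6.78 and 6.14 in control mice and 8.49, 7.02 and 7.41 in TCE mice, at 1.18 ± 0.39 (SE, limma adjusted p = 0.195). All TCE mice lay above all controls, which held at 1 of the 7 genes (14.3%), where 17.1% of all detected genes were higher without overlap. Pcbp1, an iron chaperone that delivers iron to ferritin, was at -0.17 (limma adjusted p = 0.551). Ftl1, the light chain of ferritin, had 2 probes that disagreed, at -0.46 (limma adjusted p = 0.574) and 0.60 (limma adjusted p = 0.125).

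Of 13 detected genes of iron uptake and release other than the members, 4 were above and 9 below 0, with a median of -0.13. Beside Lcn2, given above, the smallest adjusted p was that of Slc22a17, the lipocalin 2 receptor, at -0.36 (limma adjusted p = 0.42). Of 28 detected genes of mitochondrial iron import and iron-sulfur assembly, 21 were above and 7 below 0, with a median of 0.12, and 9 were without overlap (32.1%), all of them higher, where 17.1% of all detected genes were higher without overlap and 27.9% showed no overlap in either direction. Iba57, a factor of late iron-sulfur assembly, read 9.65, 9.45 and 9.49 in control mice and 10.10, 10.29 and 10.07 in TCE mice, at 0.63 ± 0.12 (SE, limma adjusted p = 0.0662). Bola3, which acts in the same pathway, was at 0.35 (limma adjusted p = 0.169).

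Of 12 detected genes of heme uptake, breakdown and export, 7 were above and 5 below 0, with a median of 0.08. At 4 of them (33.3%) the TCE mice were higher without overlap, where 17.1% of all detected genes were. Hmox1, heme oxygenase 1, the inducible enzyme that opens the heme ring and frees its iron, read 10.05, 9.84 and 10.11 in control mice and 11.68, 10.64 and 10.78 in TCE mice. All TCE mice lay above all controls, and the log2 change was 1.03 ± 0.28 (SE, limma adjusted p = 0.139). Hp, which is in this list too, had the next smallest adjusted p.

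**Figure D5:**
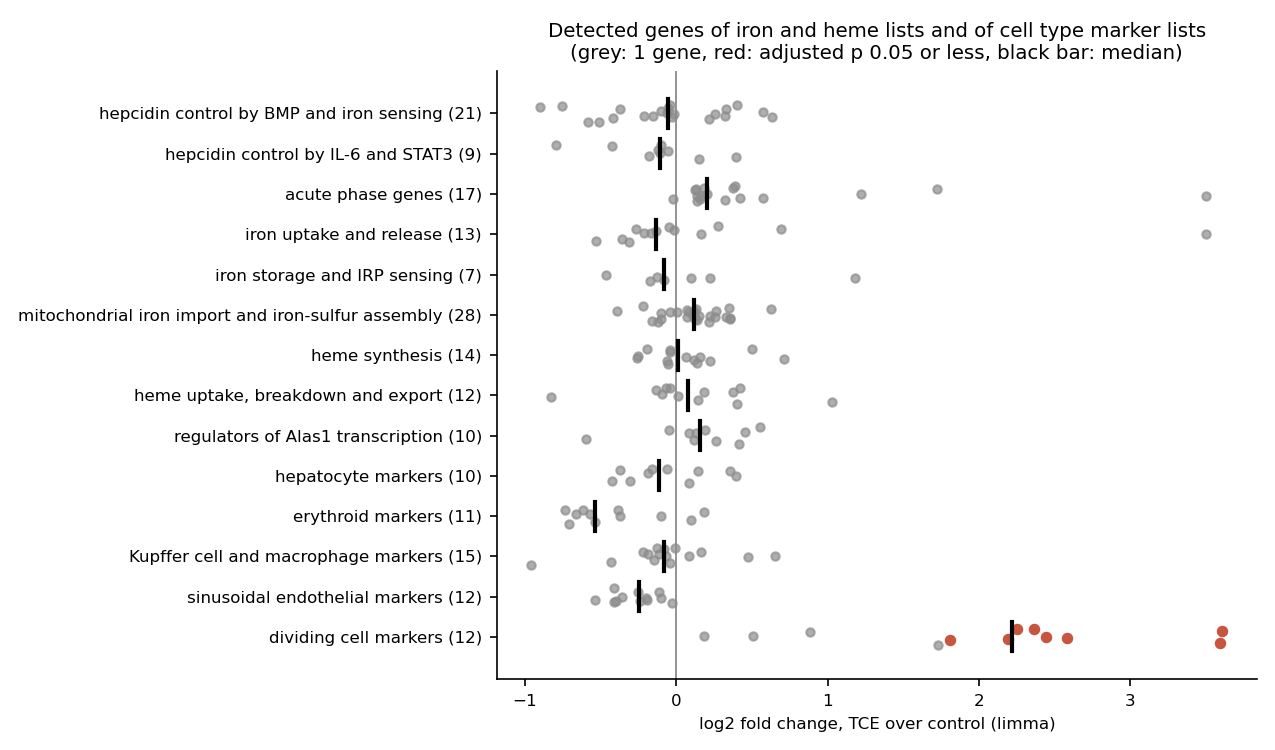
Fitted log2 change of TCE over control mice (horizontal axis) of each detected gene in the iron and heme lists and in the cell type marker lists, with the number of detected genes in brackets. The red points, past the adjusted p of 0.05, are all in the dividing cell list, and the medians of the iron and heme lists lie between -0.13 and 0.20.

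As a check of the tissue, all 10 hepatocyte markers were detected, 4 above and 6 below 0 with a median of -0.11. The lowest adjusted p values were those of Apob at -0.37 (limma adjusted p = 0.143) and Apoa1 at -0.31 (limma adjusted p = 0.215), both apolipoproteins. All 12 sinusoidal endothelial markers were detected and all 12 had fitted changes below 0, with a median of -0.25, and 0 passed. The median was -0.06 without TCE mouse 1 and -0.44 without TCE mouse 2. Over the 4 marker lists other than dividing cells, 6 of 48 genes (12.5%) had an unadjusted limma p under 0.05, where 19.1% of all detected genes did, and 5 by the methods' t-test. Stab2 was at -0.54 (limma adjusted p = 0.345) and Stab1 at -0.40 (limma adjusted p = 0.354), both scavenger receptors. The endothelial marker signal was lowest in TCE mouse 1, at a log2 sum of 13.95 against 14.78 to 14.83 in control mice. Bmp2 and Bmp6, the BMP ligands that endothelial cells send to hepatocytes to drive hepcidin, were at -0.21 (limma adjusted p = 0.643) and -0.37 (limma adjusted p = 0.588). The part of endothelial content in these values was not tested. Per mouse, 23537 to 24965 probes were well above background, 123 to 189 spots were outliers and 0 were saturated.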

How the data were processed

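Liver RNA of 3 control and 3 TCE mice was measured on 1-colour Agilent arrays, 1 mouse per array. The authors extracted the scans with Feature Extraction 10.7.1.1 and deposited a processed intensity per spot, from which local background and trends across the array had been taken out, beside the mean and background intensities. The authors also deposited group means of quantile-normalized log2 values, with probe positions on mm9. These lay within 0.01 of the group means computed here for 99.95% of probes. In that table, 6 flag columns of single arrays could not be matched to the labels and were not used.

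Control spots were left out, spots marked as outliers were set to missing, and log2 processed intensities were averaged per probe and quantile normalized. Probes that stood well above background in all 3 mice of either group entered a two-sided limma fit of group alone (limma 3.58.1, R 4.3.3), with Benjamini-Hochberg adjustment over 22731 probes. This replaced the t-test of the study's methods, which was kept as an alternative. The procedure was tested on simulated data. The number of arrays limits the precision. The exact permutation test used all 20 regroupings of 6 mice. In lists the brightest detected probe stood for a gene. Of the named list genes, Acvr1, Stat3, Foxo1, Bola3, Car1, Hmox1, Apob and Mki67 had 2 detected probes, and Birc5 and Stab2 had 3. The other probes of these genes are not given. The rule for named genes took every member with all of its probes, the genes past the adjusted p with the largest changes in each list or otherwise the 2 with the smallest adjusted p, defining cell type markers, and the 3 nearest profiles to 3 members. The members and lists were chosen with earlier results of these data known. Of the listed symbols, Ftl2, Flvcr1, Flvcr2 and Ugt1a1 were not matched on the array. Promoters came from the RefSeq table on GRCm38.p6, which held 7 of the 10 genes, and both strands were searched. Replicate numbers did not pair the mice. Alternatives were another scaling (75th percentile), normexp with an offset of 50, other filters, no removal of outlier spots, the slide or the replicate number as a block, array weights, a variance trend, the authors' group means, the t-test and each mouse left out. The spread of members, the count of probes with 1 mouse apart, the unadjusted counts over the lists and the division of the dividing cell markers by their control signal were added after the data were examined. One marker is not reported here.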

Additional observations from a re-analysis of the deposited data

How the results depend on the processing

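Of 321 probes past the adjusted p and the 2-fold limit, the count became 96 without the filter on dim probes, 177 with the slide as a block, 594 by the methods' t-test without adjustment and 35 by it with Benjamini-Hochberg adjustment, and it ran from 124 to 242 with each mouse left out. The number of iron and heme genes past both limits was 0, 1 at any fold, and 0 to 1 with each mouse left out, the 1 being Alas1 without control mouse 3. At any fold, the 1 gene (Alas2) became 0 without the filter, with the slide as a block and by the adjusted t-test, 2 with a variance trend (Alas2 and Fth1), 3 by the unadjusted t-test (also Tfrc), and 0 to 1 with each mouse left out. Some of these fits held fewer mice or more probes. The cause of the differences between the fits was not tested. The median change of the iron and heme genes was -0.16 when a gene was given by the median of its probes.

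With each mouse left out, changes that turned in sign ran from -0.22 to 0.40 for Hamp2, -0.91 to 0.21 for Hamp, -0.135 to 0.0449 for the first Trf probe and -0.0357 to 0.57 for the second Slc11a2 probe. Control mouse 1 was alone on its slide, so that mouse and the slide cannot be told apart. The slide as a block gave the same change of -0.0357 for that Slc11a2 probe as leaving this mouse out. None of these probes passed the test in any of these fits. Another scaling moved the median of all detected genes from 0.02 to 0.05 at most among the scalings tried.

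The mice of the 2 groups share replicate numbers, but deviations from the group means correlated at 0.09, 0.007 and -0.092 between mice of the same number, so they were not treated as paired. With a replicate block the count of probes was 63, and 0 iron and heme genes passed at any fold (Alas2, limma adjusted p = 0.12). Signal over background limited the third Tfrc probe in all mice and the second Slc11a2 probe in 1.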

Other observations

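The dips of single mice at single probes had values in the rest of the array. TCE mouse 3 alone lay at least 1 log2 unit below the other 5 mice at 66 of 22724 tested probes (0.29%), among them Hamp, where the gap to the nearest mouse was 1.89. TCE mouse 2 did so at 503 probes, among them the second Trf probe with a gap of 1.45. Across the array, 220 probes with such a single low mouse belonged to genes with another detected probe, and at 70 of them (31.8%) that mouse was also the lowest of 6 at another probe of the gene. The share for probes without such a dip was not computed, so the 31.8% is a description only. For Trf the other probe gave TCE mouse 2 a signal of 18.11, between the controls. Hamp and Tfr2 had no second probe. Ftl1, a ferritin gene outside the 10, showed the same kind of disagreement: its brighter probe read 16.51 in TCE mouse 1 and 17.56 to 18.00 in control mice, while its other probe read 16.15 in that mouse and 15.25 to 15.63 in control mice.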
